A study of Mus musculus with 7 samples.

Results

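The angiopoietin and Tie pathway was followed here through 7 of the 56980 genes of a sequenced mouse heart transcriptome: the ligands Angpt1, Angpt2 and Angpt4, the receptors Tek (the gene of Tie2) and Tie1, the receptor phosphatase Ptprb, and the matrix protein Svep1. They were chosen by name, and their rows were found through Ensembl gene identifiers. A level of 1 FPKM in 3 or more hearts was reached by 11431 genes, among them 6 of the 7 members, and Angpt4 stayed below it.

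Angiopoietins are secreted ligands of the endothelial receptor tyrosine kinase Tie2. Angpt1, made mainly by perivascular and other supporting cells, activates the receptor and keeps vessels quiescent, whereas Angpt2, stored and released by endothelial cells, acts on the same receptor as an antagonist or a weak agonist and loosens that state during inflammation and vessel growth. Tie1 forms complexes with Tie2, the phosphatase VE-PTP encoded by Ptprb dephosphorylates Tie2, and SVEP1 is an extracellular matrix protein that binds TIE1 and is needed for lymphatic development.

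The libraries came from myocardial tissues of wild-type male C57BL/6J mice, obtained at 8 weeks of age and kept for 1 week before surgery. In 3 mice the left coronary artery was ligated (MI hearts), and 4 mice had the same operation without ligation (sham hearts). Hearts were taken 4 days after MI, and each mouse gave 1 library of total RNA. Thoracic surgery was shared by both groups, no unoperated heart was among the samples analysed, and the labels give no region of the myocardium, while the study describes the MI tissue as ischemic. Values were FPKM, the fragments of a gene per kilobase of its length and scaled to the fragments of the whole library. In whole tissue, fewer cells of a type and less RNA per cell cannot be told apart.

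Depth was similar in all hearts, from 19977713 to 23610817 fragments, but the MI hearts were not alike. Correlated with the sham hearts over the tested genes in log2(FPKM + 1), MI replicates 1 and 3 reached r of 0.878 to 0.906 and MI replicate 2 reached 0.984 to 0.987, close to the 0.989 to 0.992 among sham hearts. Mitochondrial genes took 26.5 to 27.4% of the fragments in the sham hearts, 28.2% in MI replicate 2, and 13.6% and 14.9% in MI replicates 1 and 3. Summed fibroblast markers stood at 122 to 145 FPKM in the sham hearts, at 232 in MI replicate 2, and at 2490 and 1920 in MI replicates 1 and 3. The members and the counts of each gene list are therefore given with and without MI replicate 2, whose label was kept.

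The genes lie on 5 chromosomes, and the sequence just upstream of a gene is the part that promoter-binding factors read. For Tek, the receptor on which all 3 ligands act, and for Angpt4, the member whose groups did not overlap, the 250 bases before the RefSeq start (build GRCm38.p6, plus strand) are shown because they hold no annotated exon. Capitals mark GGAA or its reverse complement TTCC, the core bound by ETS factors, a family active in endothelial cells.
Tek, chr4:94739039-94739288: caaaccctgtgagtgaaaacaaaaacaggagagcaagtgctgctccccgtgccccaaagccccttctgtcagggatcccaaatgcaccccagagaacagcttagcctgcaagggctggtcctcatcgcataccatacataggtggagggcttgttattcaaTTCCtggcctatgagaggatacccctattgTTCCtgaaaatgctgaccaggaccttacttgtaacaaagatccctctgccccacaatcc
Angpt4, chr2:151910957-151911206: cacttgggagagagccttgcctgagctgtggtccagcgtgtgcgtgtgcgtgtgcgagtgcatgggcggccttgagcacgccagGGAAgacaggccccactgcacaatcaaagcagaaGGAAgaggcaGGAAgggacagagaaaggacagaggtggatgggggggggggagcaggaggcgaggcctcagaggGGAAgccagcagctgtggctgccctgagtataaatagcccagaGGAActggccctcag
The stretch of Angpt4 held 5 ETS cores and that of Tek held 2, against a median of 3 over 32851 promoters of the same length, of which 93.4% held at least 1. The upstream stretches of Tie1 and Svep1, not shown because they overlap annotated exons, held 7 and 6. None of these 4 stretches held the FOXO core GTAAAC, which 6.92% of promoters held, or the hypoxia response core ACGTG, which 16.6% held, on either strand. Of the 7 members, 4 had an entry among the promoters, and Angpt1, Angpt2 and Ptprb did not.

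Across the sham hearts the receptors and the phosphatase were the most abundant members per length. Tie1 stood at 21.1 ± 1.42 FPKM (SD, n = 4), Ptprb at 13.5 ± 0.709, Tek at 7.76 ± 0.598 and Angpt1 at 6.6 ± 0.549, and no sham heart of one of these genes reached the range of the next. Angpt2, at 1.12 ± 0.162, and Svep1, at 1.1 ± 0.135, did not differ beyond their spread, and Angpt4 was the lowest at 0.0631 ± 0.0215. The gene lengths behind the FPKM values, as implied by its steps, were 1.0 to 1.6 times the GENCODE M21 exon lengths, with Tek the highest at 7558 against 4712 bases, so the size of a difference in level between 2 genes depends on the annotation used.

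In MI replicates 1 and 3 together, Angpt1 was at 0.479 times its mean in the sham hearts, Angpt2 at 4.51 times and Svep1 at 5.4 times, while Tek, Tie1 and Ptprb were at 1.25, 1.27 and 1.1 times. In MI replicate 2 these 6 genes were at 0.926 to 1.03 times their sham means.

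MI minus sham differences are given on the log2(FPKM + 1) scale, which understates those of low genes, from limma fitted to all 11431 genes with p-values adjusted by the Benjamini-Hochberg method. Of the 6 members tested, 0 had an adjusted p under 0.05, the threshold used throughout, where 0.0262% of all genes tested did. With voom weights on the fragments the number was also 0, and with sample weights, which rested almost wholly on MI replicate 3 among the MI hearts, all 6 passed (limma adjusted p from 5.07e-08 to 0.000499). At an unadjusted p under 0.05 there were 3, Angpt2 and Svep1 higher and Angpt1 lower in the MI hearts, where 39.3% of all genes passed. The groups of hearts overlapped in all 6, while 25.1% of all genes had groups that did not overlap. Without MI replicate 2, 5 of the 6 members had an adjusted p under 0.05, against 71.7% of all genes. That heart was singled out from these same values for its likeness to the sham hearts. All p-values without it, here and below, are therefore descriptive and not independent tests. The median gene was itself 0.21 higher in the MI hearts, and 0.33 higher without MI replicate 2, so each difference below is also given relative to it.

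**Figure D1:**
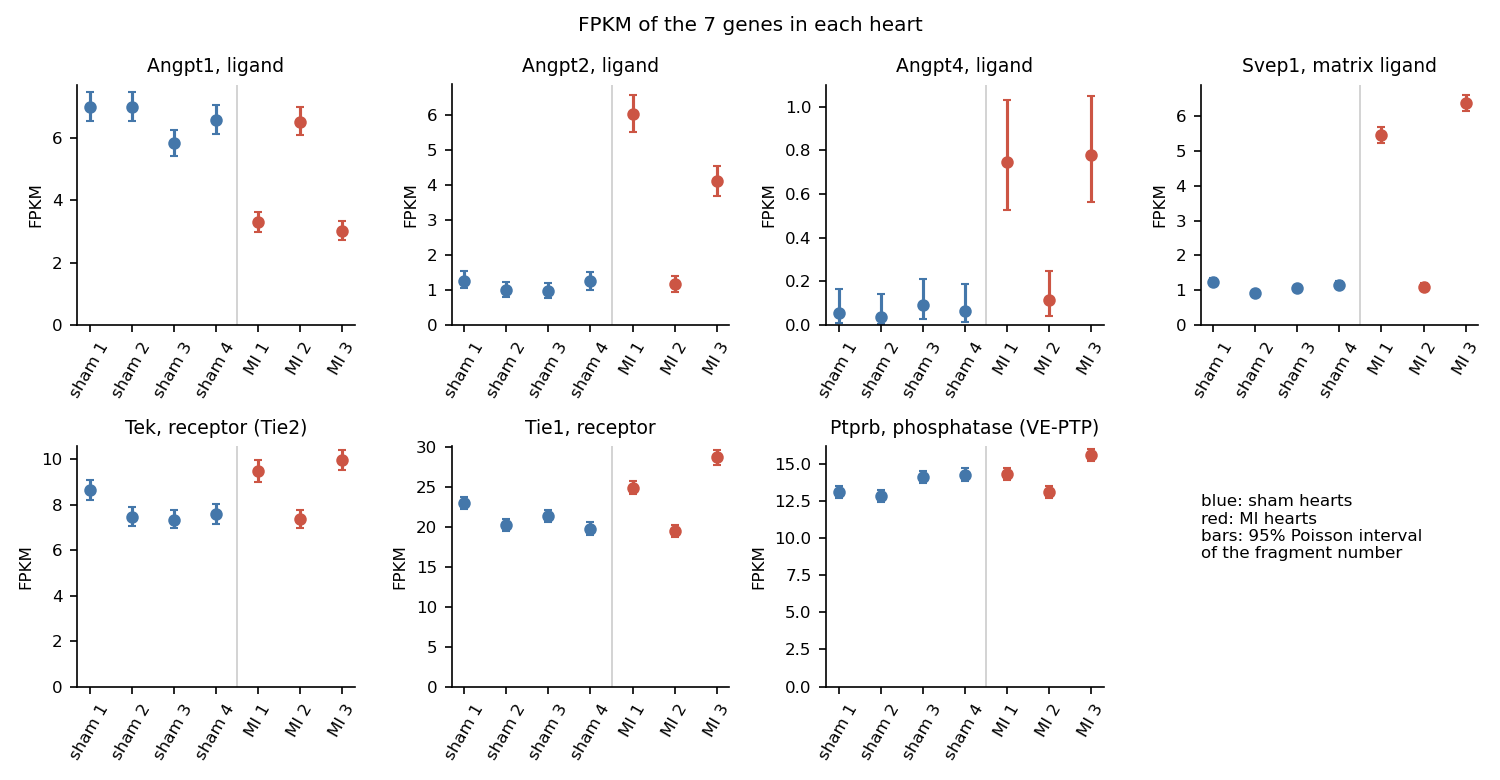
FPKM of each gene (vertical axes, from 0, with a scale of their own) in the 4 sham hearts (blue) and the 3 MI hearts (red), with bars for the 95% Poisson interval of the fragment number. MI replicates 1 and 3 sit apart from the sham hearts for Angpt1 (3.3 and 3.02 FPKM), Angpt2 (6.02 and 4.1), Angpt4 (0.747 and 0.78) and Svep1 (5.46 and 6.38), and MI replicate 2 lies within the sham range for 5 of the 7 genes.

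Angpt1, the Tie2 agonist (ENSMUSG00000022309, chr15:42424723-42676977, minus strand), was measured at 7.0, 6.98, 5.83 and 6.57 FPKM in sham replicates 1 to 4 and at 3.3, 6.52 and 3.02 FPKM in MI replicates 1 to 3. MI replicates 1 and 3 were below every sham heart, and MI replicate 2 was within the sham range, so the groups overlapped. These values rested on 760 to 909 fragments in the sham hearts and on 416, 855 and 413 in the MI hearts. The mean was 6.6 ± 0.549 (n = 4) in sham and 4.28 ± 1.95 (n = 3) in MI hearts, a ratio of 0.649. The log2 difference was -0.58 (SE 0.22, 95% interval -1.09 to -0.071, limma adjusted p = 0.112), or -0.79 relative to the median gene, and its unadjusted limma p was 0.0307. Without MI replicate 2 it was -0.87 (limma adjusted p = 0.000108), and the mean of MI replicates 1 and 3 was 0.479 times that of the sham hearts. Exons of Angpt1 share 737 bases with the antisense gene Gm17473, which held 9 to 24 fragments across sham hearts and 3, 19 and 3 in MI replicates 1, 2 and 3. Whether counting used the strand is not stated, so it is not known whether reads of these 2 genes were separated where they overlap.

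Angpt2, the context-dependent antagonist (ENSMUSG00000031465, chr8:18690263-18741562, minus strand), stood at 1.27, 1.0, 0.961 and 1.25 FPKM in sham replicates 1 to 4. In MI replicates 1 to 3 it was at 6.02, 1.16 and 4.1 FPKM. MI replicates 1 and 3 were above every sham heart, MI replicate 2 was among them, and the fragments behind the values were 83 to 109 in sham and 500, 100 and 369 in MI hearts. Means were 1.12 ± 0.162 (n = 4) and 3.76 ± 2.45 (n = 3), a ratio of 3.35. The log2 difference was 1.01 (SE 0.36, 95% interval 0.16 to 1.86, limma adjusted p = 0.109), or 0.80 relative to the median gene, with an unadjusted limma p of 0.0258. Without MI replicate 2 it was 1.50 (limma adjusted p = 9.21e-05), and MI replicates 1 and 3 averaged 4.51 times the sham mean. By log2 difference Angpt2 ranked 614 of the 11431 genes. The gene lies inside Mcph1, a gene of the plus strand with 0 exonic bases in common with Angpt2. Mcph1 stood at 0.441 to 0.718 FPKM over the 7 hearts.

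Angpt4, a further Tie2 ligand (ENSMUSG00000027460, chr2:151911210-151945337, plus strand), was near the limit of detection in sham hearts, with 0.0573, 0.0395, 0.0912 and 0.0643 FPKM from 3, 2, 5 and 3 fragments. MI replicates 1, 2 and 3 had 0.747, 0.113 and 0.78 FPKM, from 38, 6 and 43 fragments. It was the one member of the 7 whose groups did not overlap, although MI replicate 2 exceeded the highest sham heart by 1 fragment. Groups did not overlap in 25.1% of all genes tested, a set that leaves out Angpt4, so this trait does not set Angpt4 apart. Against the pooled rate of the 13 sham fragments, the rate was 11.8 times as high in MI replicate 1 (95% exact interval 6.12 to 24.0) and 12.3 times as high in MI replicate 3 (6.48 to 24.9). In MI replicate 2 the ratio was 1.79 (0.556 to 5.03), so a difference was not detectable at this depth. These intervals cover counting error only. In a fit without the filter on low values, over 30504 genes, the log2 difference was 0.51 (SE 0.16, limma adjusted p = 0.188, unadjusted 0.0174), and without MI replicate 2 it was 0.73 (limma adjusted p = 0.000101).

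The balance of the ligands was read as the Angpt2/Angpt1 ratio of FPKM in each heart. It was 0.182, 0.144, 0.165 and 0.19 in sham replicates 1 to 4, so that Angpt1 exceeded Angpt2 in every sham heart. In MI replicate 1 it was 1.83 (95% exact binomial interval 1.6 to 2.08), in MI replicate 2 0.178 (0.143 to 0.219) and in MI replicate 3 1.36 (1.18 to 1.57). The ratio was above 1 in MI replicates 1 and 3, and in MI replicate 2 it lay between the sham values. The mean was 0.17 ± 0.0204 in sham and 1.12 ± 0.851 in MI hearts. On the log2 scale the groups differed by 2.17, which is 4.5-fold (exact two-sided permutation test over 35 splits, p = 0.171, adjusted over 8 ratios 0.229), and the smallest p that 3 against 4 hearts allow is 0.0571. Without MI replicate 2 the log2 difference was 3.22, with an exact permutation p of 0.133, the smallest that 2 against 4 hearts allow.

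**Figure D2:**
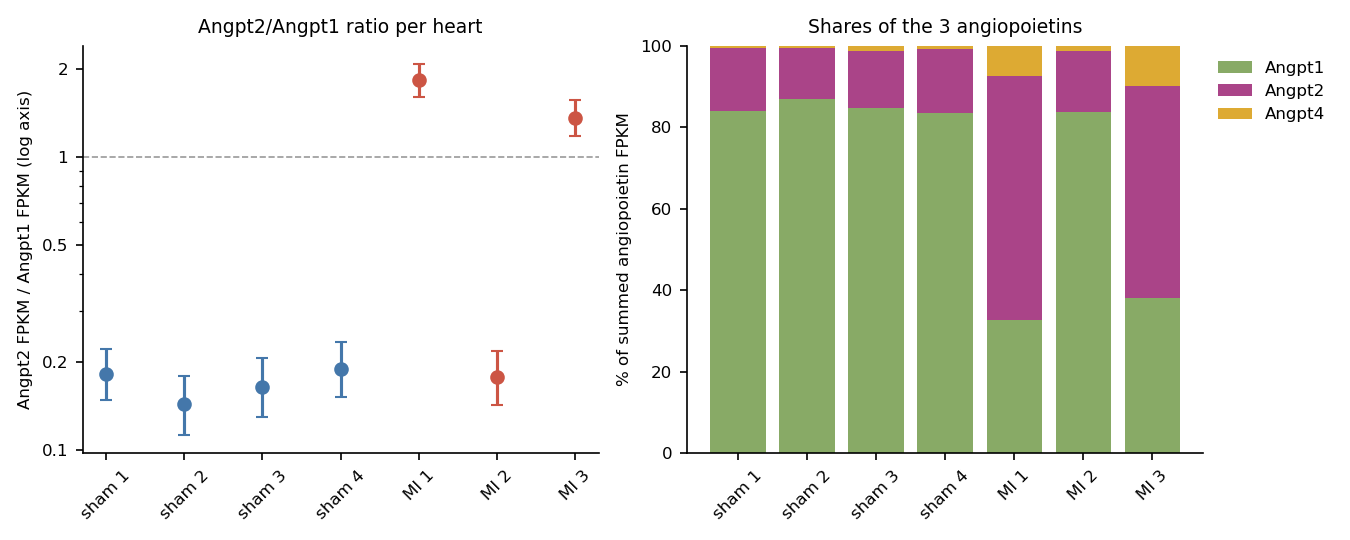
Left, the Angpt2/Angpt1 ratio of FPKM in each heart on a log axis, with bars for the 95% exact binomial interval of the fragment numbers and a dashed line at 1; right, the percentage of summed angiopoietin FPKM held by each ligand. The sham hearts and MI replicate 2 lie between 0.144 and 0.19, and MI replicates 1 and 3 lie at 1.83 and 1.36.

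Angpt1 was the major angiopoietin transcript in the sham hearts and MI replicate 2, and Angpt2 in MI replicates 1 and 3. Summed FPKM of the 3 angiopoietins was 6.88 to 8.33 across sham hearts and 10.1, 7.8 and 7.9 in MI replicates 1, 2 and 3. Angpt1 made up 83.4 to 87.0% of this sum in the sham hearts, 83.7% in MI replicate 2, and 32.8% and 38.2% in MI replicates 1 and 3. Angpt2 held 12.5 to 15.8% in the sham hearts, 14.9% in MI replicate 2, and 59.8% and 51.9% in MI replicates 1 and 3. Angpt4 held 0.492 to 1.33% across sham hearts and 7.42, 1.46 and 9.87% in MI replicates 1, 2 and 3. Relative to Tek, the summed ligands were at 0.937 to 1.08 across sham hearts and at 1.06, 1.06 and 0.793 in MI replicates 1, 2 and 3.

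Tek, which encodes the receptor Tie2 (ENSMUSG00000006386, chr4:94739289-94874976, plus strand), stood at 8.64, 7.46, 7.34 and 7.59 FPKM in sham replicates 1 to 4 and at 9.46, 7.35 and 9.97 in MI replicates 1 to 3. MI replicates 1 and 3 were above the highest sham heart and MI replicate 2 was at the lower end of the sham range. The MI mean of 8.93 ± 1.39 (n = 3) was 1.15 times the sham mean. With 1146 to 1779 fragments per heart, the log2 difference was 0.17 (SE 0.12, 95% interval -0.11 to 0.46, limma adjusted p = 0.287), or -0.036 relative to the median gene, and it was -0.072 with median log-ratio scaling, -0.087 with quantile normalization and 0.35 with rescaling to TPM, which put the median gene at 0.37. Without MI replicate 2 it was 0.29 (limma adjusted p = 0.0109), when the median gene was at 0.33. The sign of the Tek difference thus depended on how hearts were scaled.

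Tie1, the co-receptor (ENSMUSG00000033191, chr4:118471191-118490061, minus strand), was at 23.0, 20.3, 21.4 and 19.8 FPKM in sham replicates 1 to 4 and at 24.9, 19.5 and 28.7 FPKM in MI replicates 1 to 3. MI replicates 1 and 3 were again above the sham hearts, and MI replicate 2 was just under the lowest of them. The MI mean of 24.4 ± 4.6 (n = 3) was 1.16 times the sham mean. The log2 difference was 0.19 (SE 0.14, 95% interval -0.14 to 0.51, limma adjusted p = 0.315), or -0.024 relative to the median gene, and it was -0.077 and -0.033 with median log-ratio and quantile scaling and 0.38 with rescaling to TPM. Without MI replicate 2 it was 0.33 (limma adjusted p = 0.0109), the same as the median gene. The ratio of Tie1 to Tek FPKM ran from 2.6 to 2.91 in the sham hearts and was 2.63, 2.66 and 2.88 in MI replicates 1, 2 and 3, so every MI heart was within the sham range. On the log2(FPKM + 1) scale, Tie1 minus Tek differed between groups by 0.012 (exact two-sided permutation p = 0.857, adjusted over 8 ratios 0.857), and the sign turned, to between -0.032 and -0.008, with the replicate number as a block and when sham replicate 4 or MI replicate 3 was left out.

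Ptprb, the gene of VE-PTP (ENSMUSG00000020154, chr10:116275523-116389535, plus strand), was at 13.1, 12.8, 14.1 and 14.2 FPKM in sham replicates 1 to 4 and at 14.3, 13.1 and 15.6 FPKM in MI replicates 1 to 3, where MI replicate 3 was the highest and MI replicate 2 was within the sham range. The MI mean of 14.3 ± 1.26 (n = 3) was 1.06 times the sham mean. With 3955 to 5237 fragments per heart, the log2 difference was 0.072 (SE 0.096, 95% interval -0.15 to 0.30, limma adjusted p = 0.561), or -0.14 relative to the median gene, and it was -0.18 and -0.17 with median log-ratio and quantile scaling and 0.26 with rescaling to TPM. It was the one tested member that did not pass without MI replicate 2 (0.13, limma adjusted p = 0.126). Ptprb FPKM was 1.51 to 1.92 times Tek FPKM in the sham hearts and 1.51, 1.78 and 1.56 times in MI replicates 1, 2 and 3.

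Svep1, the matrix ligand of Tie1 (ENSMUSG00000028369, chr4:58042442-58206859, minus strand), was at 1.24, 0.924, 1.06 and 1.16 FPKM in sham replicates 1 to 4 and at 5.46, 1.1 and 6.38 FPKM in MI replicates 1 to 3. MI replicates 1 and 3, with 2330 and 2954 fragments, were above every sham heart, which held 393 to 543, and MI replicate 2, with 490, was within their range. Means were 1.1 ± 0.135 (n = 4) and 4.32 ± 2.82 (n = 3), a ratio of 3.94. The log2 difference was 1.15 (SE 0.40, 95% interval 0.20 to 2.10, limma adjusted p = 0.109), or 0.94 relative to the median gene, with an unadjusted limma p of 0.0238. It was the member with the largest difference in this fit, ranked 459 of 11431 genes, and without MI replicate 2 the difference was 1.72 (limma adjusted p = 1.02e-05), 5.4-fold in mean FPKM. Exons of Svep1 share 2244 bases with Gm26889, a lincRNA on the opposite strand that was not analysed here, so reads from that stretch may belong to either gene.

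**Figure D3:**
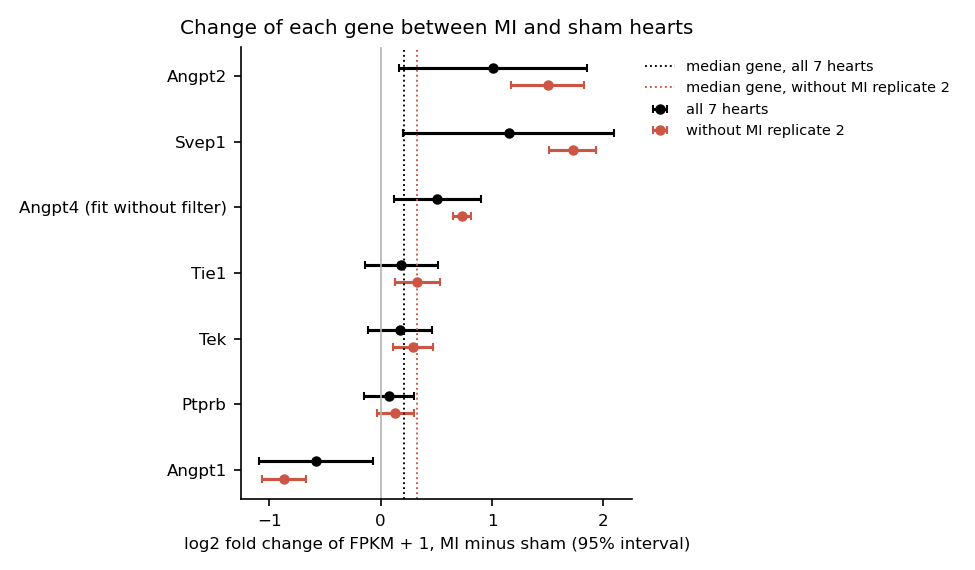
Log2 difference of FPKM + 1 between MI and sham hearts for each gene (points, with 95% intervals from limma), for all 7 hearts (black) and without MI replicate 2 (red); dotted lines mark the median of all genes tested, at 0.21 and 0.33. Svep1 (1.15), Angpt2 (1.01) and Angpt1 (-0.58) lie away from the median gene and keep their sign under each scaling, while Tek, Tie1 and Ptprb lie near it and take the opposite sign when hearts are scaled by the median log-ratio.

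To set each member beside the cells known to make it, its log2(FPKM + 1) was read against the mean of a list of markers in the same heart. Blood endothelial markers, 10 genes that include Pecam1 and Cdh5, summed to 174 to 194 FPKM across sham hearts and to 225, 170 and 241 in MI replicates 1, 2 and 3, with a median log2 difference of 0.29 over the list against 0.21 over all genes. At an unadjusted p under 0.05, which 39.3% of all genes passed, 2 of the 10 were higher and 0 lower. With MI replicate 2 left out, 7 passed the adjusted p threshold as higher and 0 as lower, against 71.7% of all genes, and these shares are the background for each list below. No marker of any cell type list was at 0 FPKM in every heart. Within the list, Cldn5, a tight junction protein, had a log2 difference of 0.49 and Egfl7, an endothelial secreted factor, of 0.44, while the VEGF receptors Kdr and Flt1 were at -0.20 and -0.039.

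Against these markers the receptors differed little between groups. Tek minus endothelial markers was -0.833 to -0.699 across sham hearts and -0.865, -0.805 and -0.861 in MI replicates 1, 2 and 3, a difference of -0.063 (exact two-sided permutation p = 0.171, adjusted over 8 ratios 0.229). Tie1 differed by -0.05 (exact permutation p = 0.343, adjusted 0.392) and Ptprb by -0.16 (exact permutation p = 0.171, adjusted 0.229). For Tek and for Ptprb, MI replicates 1 and 3 were below every sham heart, and MI replicate 2 was among the sham hearts. The Ptprb values were -0.319 and -0.265 in MI replicates 1 and 3, -0.053 in MI replicate 2, and -0.154 to 0.037 across sham hearts. Without MI replicate 2 the differences were -0.082 for Tek, -0.045 for Tie1 and -0.24 for Ptprb.

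Angpt2 minus endothelial markers was -2.92 to -2.72 across sham hearts and -1.44, -2.76 and -1.97 in MI replicates 1, 2 and 3. The difference was 0.77 (exact two-sided permutation p = 0.114, adjusted over 8 ratios 0.229) and 1.12 without MI replicate 2. In those 2 MI hearts Angpt2 thus stood higher relative to endothelial markers than in any sham heart. Macrophage markers, which include Cd68 and C1qb, rested at 101 to 126 summed FPKM across sham hearts and at 610, 122 and 515 in MI replicates 1, 2 and 3, with 7 of the 7 tested higher at an unadjusted p under 0.05 and, without MI replicate 2, at an adjusted one. They differed between the same hearts as Angpt2, and their part in its level was not tested.

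Angpt1 minus mural markers (6 genes of pericytes and smooth muscle, Rgs5 and Pdgfrb among them) was -0.855 to -0.653 across sham hearts and -1.84, -0.719 and -1.92 in MI replicates 1, 2 and 3. The difference was -0.75 (exact two-sided permutation p = 0.171, adjusted over 8 ratios 0.229) and -1.14 without MI replicate 2. With the median of the mural list in place of its mean it was -0.54. The mural sum itself was 169 to 187 FPKM across sham hearts and 184, 174 and 184 in MI replicates 1, 2 and 3, so every MI heart was within the sham range. Most of that sum was Rgs5, at 131 to 146 FPKM in the 7 hearts, so it says little about the other mural genes. Single mural genes differed in sign, with Pdgfrb at 0.61 and Cspg4 at 0.39 against Kcnj8 at -0.28 and Rgs5 at -0.030. Of the 6, 1 was higher and 1 lower at an unadjusted p under 0.05, and 3 and 1 at an adjusted p without MI replicate 2. Cardiomyocyte markers summed to 13700 to 15000 FPKM across sham hearts and to 9090, 13800 and 9640 in MI replicates 1, 2 and 3, with 5 of 8 lower and 0 higher at an unadjusted p under 0.05, and 8 lower at an adjusted p without MI replicate 2. Angpt1 was low in the hearts in which these markers and the mitochondrial share were low, and their part in its level was not tested.

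Svep1 minus fibroblast markers was -2.58 to -2.31 across sham hearts and -4.46, -3.17 and -4.01 in MI replicates 1, 2 and 3. All 3 MI hearts were below all 4 sham hearts, a difference of -1.42 (exact two-sided permutation p = 0.0571, the least that 3 against 4 hearts allow, adjusted over 8 ratios 0.229). All 8 fibroblast markers tested were higher at an unadjusted p under 0.05, with a median log2 difference of 2.76, and all 8 at an adjusted p without MI replicate 2. Postn (4.10) and Col1a1 (3.69), genes of activated fibroblasts and collagen, exceeded Tcf21 (1.303) and Pdgfra (1.08), which also mark resting fibroblasts. The Svep1 difference from the fibroblast markers was -1.78 without MI replicate 2 and -1.14 with a pseudocount of 0.1. The log2 difference of Svep1 itself, 1.15, lay between those of Tcf21 and Pdgfra. That order depended on the added 1, which understates low genes most. As a ratio of mean FPKM, Svep1 was at 3.94, Tcf21 at 3.8 and Pdgfra at 2.84.

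**Figure D4:**
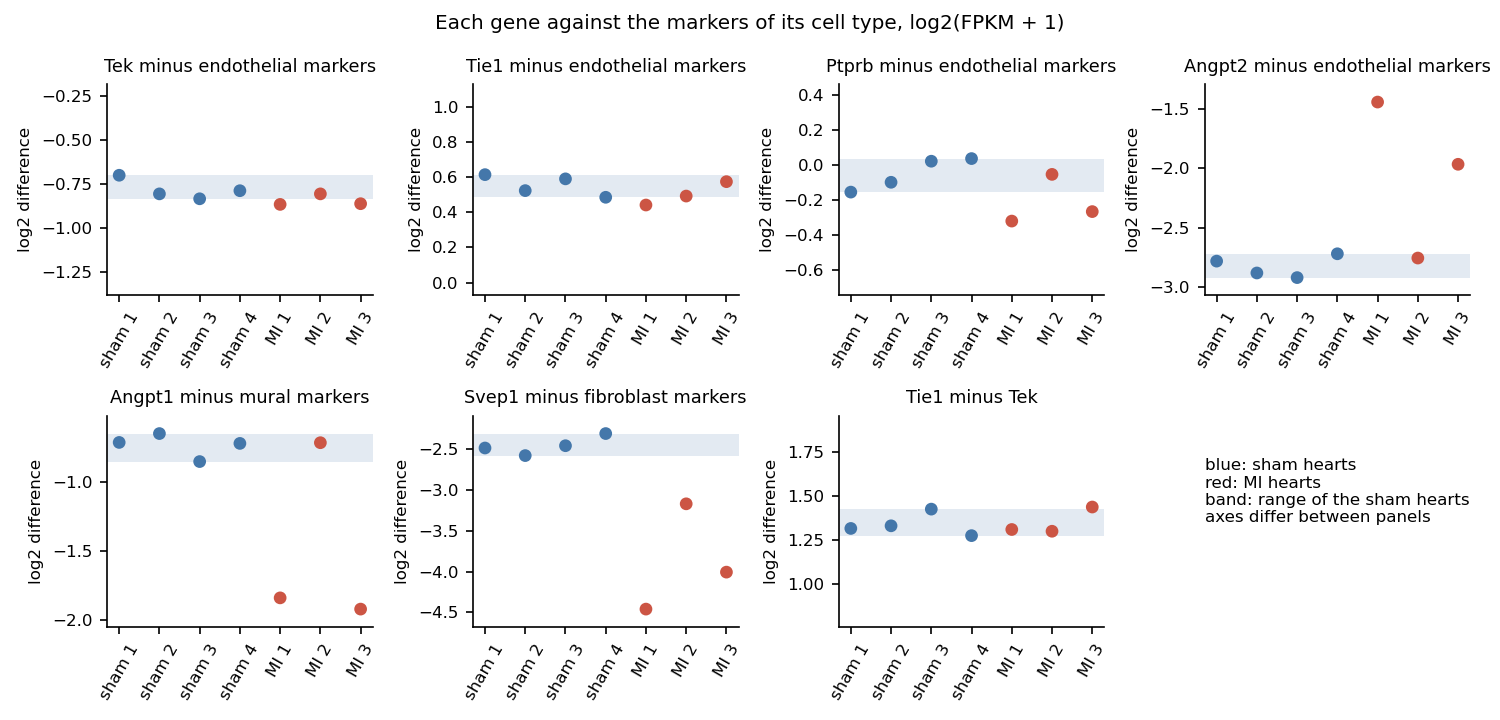
Difference in log2(FPKM + 1) between each gene and the mean of its marker list, or between Tie1 and Tek, in each heart (blue sham, red MI), with a band over the range of the sham hearts; vertical axes differ between panels. Svep1 minus fibroblast markers is the one panel in which all 3 MI hearts lie outside the band on the same side, at -4.46, -3.17 and -4.01.

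Lymphatic endothelial cells carry Tie1 and respond to SVEP1 and Angpt2, so their markers were read as well. They summed to 37.0 to 46.4 FPKM across sham hearts and to 119, 53.7 and 92.5 in MI replicates 1, 2 and 3, and 4 of 6 were higher and 1 lower at an unadjusted p under 0.05, as at an adjusted p without MI replicate 2. Pdpn, also made by fibroblasts, had a log2 difference of 2.03 and Ccl21a, a lymphatic chemokine, of 1.29, whereas Prox1, the transcription factor that defines lymphatic identity and is also present in cardiomyocytes, was at -0.51. Lyve1, shared with resident macrophages, was at 0.18. Platelet markers, of interest because platelets carry Angpt1, had 0 of 2 tested genes past an unadjusted p of 0.05 (1 past an adjusted p without MI replicate 2) and summed to 9.47 to 11.1 FPKM across sham hearts and to 24.1, 10.1 and 11.8 in MI replicates 1, 2 and 3. Cycling cell markers, Mki67 and Top2a with 2 that were below the filter, summed to 2.24 to 3.29 FPKM across sham hearts and to 11.5, 2.59 and 9.87 in the MI hearts. Top2a passed the filter on low values only with MI replicates 1 and 3 counted, so no calls are given for this list.

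Downstream of Tie2, 15 of 17 listed signalling genes were tested, and 5 were higher and 1 lower at an unadjusted p under 0.05, with a median log2 difference of 0.21, equal to that of all genes. The 6 of 15 were close to the background of 39.3%. By limma, 0 had an adjusted p under 0.05, and without MI replicate 2 there were 8 higher and 1 lower, a smaller share than the background of 71.7%. The adaptor Shc1 was at 3.47 ± 0.14 FPKM in sham and 7.18 ± 3.4 in MI hearts, a log2 difference of 0.77, and Tnip2 (ABIN-2), a Tie2-linked inhibitor of NF-kappaB, was at 0.73. The adaptor Grb14 was the gene lower at an unadjusted p, at 18.9 ± 0.816 FPKM in sham and 10.2, 15.3 and 9.85 FPKM in MI replicates 1, 2 and 3 (log2 difference -0.66, limma adjusted p = 0.108). Its MI hearts were all below its sham hearts, and its unadjusted limma p was 0.00318. Grb14 was lowest in MI replicates 1 and 3, where cardiomyocyte markers were also low, and their part in its level was not tested. Levels of the signalling genes are those of whole tissue, and which cells they came from was not tested. Pik3r1, a regulatory subunit of PI3-kinase, was at -0.14 with a spread wider than that difference (SE 0.29). Foxo1, the transcription factor that drives Angpt2 and is held in check by Tie2 signalling through Akt, was at 3.06 ± 0.0885 FPKM across sham hearts and 4.86, 3.92 and 4.54 in MI replicates 1, 2 and 3, with no overlap between groups (log2 difference 0.42, limma adjusted p = 0.108). Its unadjusted limma p was 0.00243, and Foxo1 is named outside the rule for named genes, after its values were seen.

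Integrins that also bind angiopoietins had a median log2 difference of 0.74 over 4 tested genes, of which 3 were higher at an unadjusted p under 0.05, against 39.3% of all genes. With MI replicate 2 left out the median was 1.13 and 3 of 4 were higher at an adjusted p under 0.05, against 71.7%. Itgb5, the beta chain of a vitronectin receptor, was at 17.6 ± 0.559 FPKM in sham hearts and 78.8, 20.2 and 73.8 FPKM in MI replicates 1, 2 and 3, a log2 difference of 1.43 with groups that did not overlap. Itga5 and Itgb1, the chains of a fibronectin receptor, were at 0.86 and 0.62, and Itgav, at 0.56, had an unadjusted limma p of 0.112. These integrins are made by many cell types. Itga5, Itgb1 and Itgb5 were high in the 2 hearts that were high for fibroblast and macrophage markers, whose part in their level was not tested.

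Of 9 genes of tip cells and sprouting, the setting in which Angpt2 is best known, 8 were tested and 3 were higher at an unadjusted p under 0.05, near the background of 39.3%. With MI replicate 2 left out, 6 passed the adjusted p threshold as higher and 0 as lower, near the background of 71.7%, and the median log2 difference was 0.81 in place of 0.49. Plvap, a diaphragm protein of fenestrated and immature vessels, was at 3.81 ± 0.442 FPKM across sham hearts and at 58.5, 4.8 and 46.9 in MI replicates 1, 2 and 3 (log2 difference 2.41), and Cxcr4, a chemokine receptor shared with leukocytes, had a log2 difference of 1.29. The Notch ligand Dll4 was at 7.9 ± 0.343 FPKM in sham and 7.84 ± 0.307 in MI hearts, a log2 difference of -0.009 whose SE was 0.083. Apln, a tip cell peptide, was at -0.15 (SE 0.23). The sign of both turned without MI replicate 2, with Dll4 at 0.017 and Apln at 0.073. The tip cell marker Esm1, named after its values were seen, missed the filter on low values, with 0.406 to 0.617 FPKM across sham hearts and 4.09, 0.442 and 1.78 FPKM in MI replicates 1, 2 and 3.

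Of 13 endothelial transcription factors, 11 were tested and 3 were higher at an unadjusted p under 0.05, below the background of 39.3%, with a median log2 difference of 0.26. With MI replicate 2 left out, 7 passed the adjusted p threshold as higher and 1 as lower, against 71.7% of all genes, and the median was 0.38. Hif1a, the hypoxia-inducible factor, was at 8.84 ± 0.551 FPKM in sham hearts and 30.3, 8.48 and 21.5 in MI replicates 1, 2 and 3 (log2 difference 0.94), and the ETS family member Elk3 was at 0.84. Epas1, the second hypoxia-inducible factor and the more endothelial one, was at 81.3 ± 3.24 FPKM in sham hearts and at 55.9, 87.3 and 60.8 FPKM in the MI hearts (log2 difference -0.28, limma adjusted p = 0.207), and without MI replicate 2 its log2 difference was -0.47 (limma adjusted p = 0.000569). Gata2 was at 0.023 (SE 0.13), and at -0.10 without MI replicate 2.

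**Figure D5:**
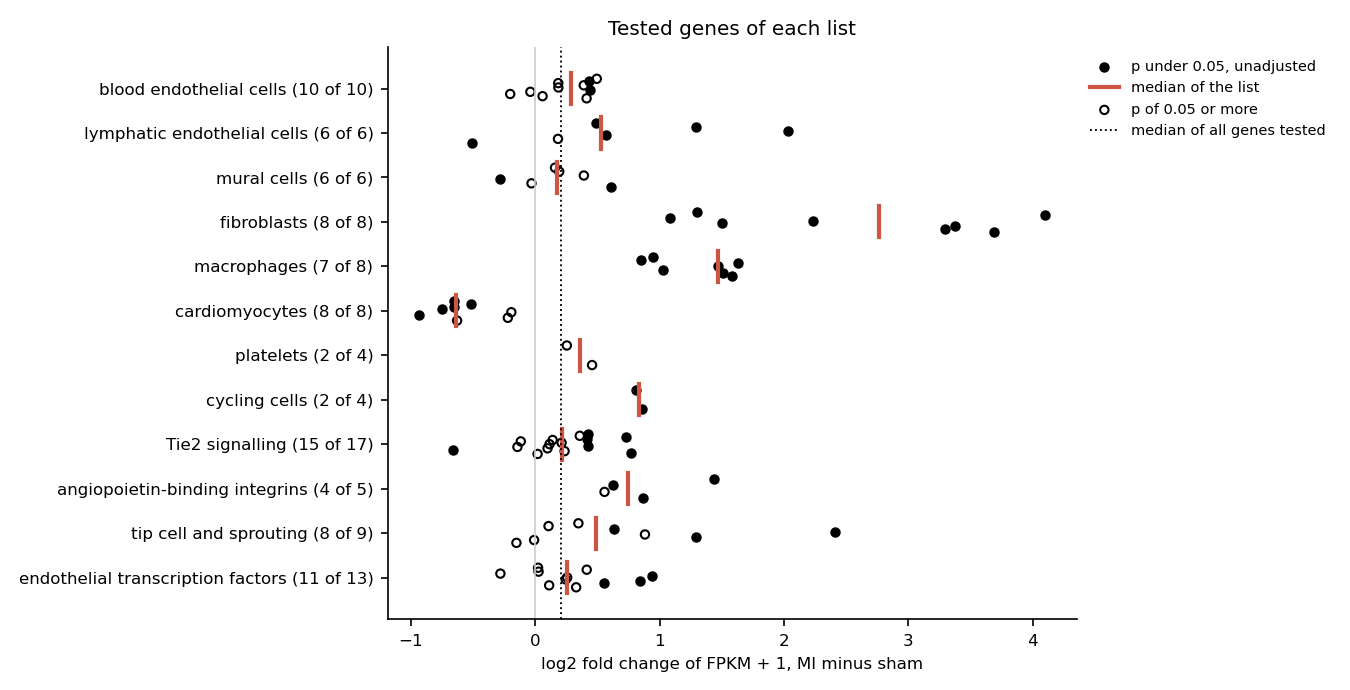
Log2 difference of FPKM + 1 between MI and sham hearts for the tested genes of each list (points, filled where the unadjusted limma p is under 0.05), with the median of the list (red bar) and of all genes tested (dotted line at 0.21). Fibroblast and macrophage markers lie farthest to the right, cardiomyocyte markers lie to the left of 0, and the Tie2 signalling genes are centered on the median gene.

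The genes closest to each member in their course over the 7 hearts were found by the root mean square distance in log2(FPKM + 1), each gene taken relative to its sham mean, among 10857 genes with a sham mean FPKM of at least 1. Nearest to Angpt1 were Ldhd (0.0615), the mitochondrial gene mt-Nd3 (0.0633) and Gm28437 (0.0687). Nearest to Angpt2 were P2ry6 (0.0709), Icam1 (0.0712) and Gsdmd (0.0742), and nearest to Svep1 were Myl9 (0.057), Gm11836 (0.0745) and Ogn (0.0789). These neighbours shared the split of MI replicates 1 and 3 from the other hearts, as Icam1 did with 11.4, 2.83 and 8.54 FPKM in MI replicates 1, 2 and 3 and 2.52 to 2.98 in the sham hearts.

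Tek, Tie1 and Ptprb had smaller distances to their neighbours. The distance is not scaled to how far a gene moves, and these genes moved little, so the smaller values do not show a closer likeness. Tek was nearest to B9d2 (0.0248), Tob1 (0.0271) and Tlk2 (0.0344), Tie1 to genes that include Ddx28 (0.0384) and Pgk1 (0.0384), and Ptprb to Klhdc3 (0.0221), Ppp6r1 (0.0325) and Mios (0.0331). The neighbours follow each member's course because they were chosen for it, and those of Tek also stood apart in MI replicates 1 and 3, as Tob1 did with 22.3, 16.7 and 23.6 FPKM in MI replicates 1, 2 and 3 and 17.1 to 20.4 in the sham hearts. The likeness is a description over 7 hearts, in each of which all genes were measured in the same library.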

How the data were processed

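RNA of myocardial tissue from 4 sham and 3 MI mice was sequenced, and the sample labels gave the groups. FPKM values were deposited by the authors for 56980 genes, with 0 columns left unused. The submitters' processing notes name CASAVA 1.8, HISAT2, SAMtools 1.3.1, edgeR and the build mm10, without their roles. The annotation, the counting program and the use of strand are not given in the sources used here. Symbols and positions came from GENCODE M21 on GRCm38, which held 52073 identifiers (91.4%). FPKM steps gave whole fragments for 11433 of 11445 genes searched (99.9%), within 0.05 or, at high counts, a somewhat wider margin. For 2320 genes the GENCODE exon length gave them, and for the others the shortest length that did was taken. The steps gave depths, and the fragments gave counting intervals, which cover counting error only.

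Genes at 1 FPKM or more in 3 or more hearts were tested as log2(FPKM + 1) in limma 3.58.1 (lmFit, eBayes with trend, R 4.3.3), without covariates. Ratios were tested by exact two-sided permutation over 35 splits with Python 3.11.15 and SciPy 1.17.1. Scripts were tested on simulated data. The members, lists and tests were chosen with earlier results of these data known. Named are all members, up to 2 genes with the largest and 2 with the smallest difference in a list, not all of them given here, and 3 nearest genes per member, of which 1 is not reported here. Alternatives were another pseudocount, other filters, scalings, variance models and weights, a block for the replicate number, medians of marker lists, and each heart left out. Same-numbered sham and MI hearts did not deviate together (r of 0.0739, -0.0163 and -0.0802), so the numbers were not taken to pair them.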

Additional observations from a re-analysis of the deposited data

How the results depend on the processing

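Over all genes, 2 were higher and 1 lower in MI hearts at a limma adjusted p under 0.05. The higher and lower counts came to 5 and 1 for a pseudocount of 0.1, 20 and 1 without the filter, 10 and 5 with median log-ratio scaling, and 10 and 5 with quantile normalization. They were 1 and 1 with voom, and 7636 and 2316 with sample weights, which gave MI replicate 3 a weight of 437. They were 0 and 0 with a filter on the mean (4740 genes at an unadjusted p under 0.05), with rescaling to TPM (4723), and with the replicate block (2332), which brought none of the 6 members tested past the threshold. Leaving out 1 heart gave 0 to 6512 genes higher and 0 to 1683 lower, both highest without MI replicate 2, with 1487 to 8492 at an unadjusted p. The cause of these differences was not tested.

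Angpt1, Angpt2, Svep1 and Angpt4 kept their direction under every alternative run, from -0.91 to -0.41 for Angpt1, 0.65 to 1.50 for Angpt2, 0.82 to 1.83 for Svep1 and 0.39 to 0.73 for Angpt4. Reversed were Tek (-0.072 with median log-ratio scaling, -0.087 with quantile normalization), Tie1 (-0.077, -0.033) and Ptprb (-0.18, -0.17). Tie1 minus Tek was -0.008 with the replicate block and ran from -0.032 to 0.042 with 1 heart left out, below 0 without sham replicate 4 (-0.008) or MI replicate 3 (-0.032). The Angpt2/Angpt1 difference kept its direction in all 9 alternatives, from 1.54 to 3.22. It was 2.22 with the replicate block (exact p = 0.25, the smallest that 3 same-numbered pairs allow). With 3 MI hearts, of which 1 stood apart, the exact tests could not reach 0.05, and the few Angpt4 fragments in sham hearts limit its ratios.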
